A study of Homo sapiens with 8 samples.

Results

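The expression of genes that mark nerve cells was followed in SK-N-MC cells, an established Ewing sarcoma line, after depletion of the transcriptional co-activators YAP1 and TAZ. The 31 genes encode neuronal RNA-binding proteins, proteins of synaptic and dense core vesicles, neurofilaments, growth cone and microtubule proteins, adhesion molecules and transcription factors of young neurons. Of these, 29 had a transcript cluster (the set of probes read together for a locus) that the platform annotation ties to that 1 gene symbol. They are read here among the 22411 genes measured. MAPT alone had more than 1 such cluster, and its brighter one was used. The single cluster that lists TUBB3 carries 2 symbols, so TUBB3 was not analysed here, and neither was NEUROD1.

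Transmitter release in neurons depends on vesicles that are filled by transporters, docked by SNARE proteins and triggered to fuse by synaptotagmins when calcium enters. Many of these genes are kept silent outside the nervous system by the repressor REST and its corepressors. In Ewing sarcoma a fusion of EWSR1 with an ETS gene, usually FLI1, drives the tumour, and partial neural gene expression is a known trait of its cells. YAP1 and TAZ (gene symbol WWTR1) act through TEAD transcription factors and are restrained by the Hippo kinases.

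RNA came from 8 cultures grown in serum-containing medium. A non-targeting control siRNA was given to 4 cultures, and pooled YAP1 and TAZ siRNAs to the other 4. Oligonucleotides were delivered with Viromer Blue at 10 nM in both groups, and cells were collected at 72 h. The cultures of a group were independent and handled in parallel, so the spreads given are between cultures of 1 cell line in 1 experiment. Because the siRNAs were mixed, the parts of YAP1 and TAZ cannot be told apart. Each culture gave 1 whole-transcript array, and precision is limited by how many arrays there are. Values are log2 signals as the submitters deposited them. Differences are YAP1/TAZ siRNA minus control siRNA on the log2 scale, tested with limma across all 22411 genes. In bulk RNA, fewer cells of a type and less RNA per cell cannot be told apart.

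Both siRNA targets fell in the treated cultures. YAP1 averaged 7.68 ± 0.039 in controls and 6.38 ± 0.070 after its siRNA (SD over 4 arrays; limma adjusted p = 4.73e-05). WWTR1 averaged 6.48 ± 0.084 and 5.86 ± 0.080 (SD over 4 arrays; limma adjusted p = 0.00898). Across all genes 30 rose and 18 fell at a limma adjusted p under 0.05, which is 0.134% and 0.0803% of those tested. Control replicate 4 and YAP1/TAZ siRNA replicate 2 stood apart on the first principal component (46% of variance), with scores of 28.4 and 27.4 against −14.7 to 3.42 on the other arrays. All 7 Ewing sarcoma markers measured, CD99 and NKX2-2 among them, lay above the median of all genes. Of the other markers, 1 of 6 glial, 2 of 6 sympathetic, 5 of 6 fibroblast, 3 of 6 epithelial and 0 of 5 blood genes did so. No marker passed limma over all genes. An unadjusted limma p under 0.05 was reached by 2 Ewing, 0 glial, 1 sympathetic, 2 fibroblast, 0 epithelial and 1 blood marker. It was reached by 10.3% of all genes and by 15.8% of genes above the median level. The mean level of the Ewing markers was 10.13 to 10.19 on the control arrays and 10.23 to 10.37 on the YAP1/TAZ siRNA arrays, without overlap. By gene, 5 of the 7 differences lay above 0 and 2 below, against 64.4% above 0 among genes above the median level. The part of this shift of the list mean in the results that follow was not tested. The mean level overlapped between the groups for the other 5 marker lists.

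A gene was called expressed when its mean over the 8 arrays lay above 5.03, the median of all genes, and dim otherwise. By this line 16 of the 29 genes were expressed and 13 were dim. MAP2, with a mean of 5.17, was the expressed gene nearest the line, and SYP, with 4.84, the dim gene nearest it. Genes of neurons lay on both sides of the line, with MAPT, SNAP25, SYT1, NEFH, MAP2 and GAP43 expressed and STMN2, NEFL, NEFM, SYP and ELAVL4 dim. DCX, a gene of migrating neurons, was dim. Neuronal is used here as the name of the gene list. No detection call or background level was used here, so a dim signal may or may not exceed background.

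SLC17A7 and ELAVL3 rose after YAP1/TAZ siRNA, and 0 of the 29 genes fell by limma over all genes. Both were expressed, which makes 2 of 16, where 0.250% of all genes above the median level rose and 0.161% fell. The other 27 genes did not pass. The median difference was 0.12 over the 16 expressed genes, with 13 of them above 0. Over all genes above the median level it was 0.045, with 64.4% above 0. Over the 13 dim genes it was 0.0075, the same as over all genes. Over all 29 genes 20 differences lay above 0, against 52.8% of all genes. An unadjusted limma p under 0.05 was reached by 7 of the 29 genes, against 10.3% of all genes, and all 7 were higher, against 7.13%. Among the 16 expressed genes it was 5, all higher, against 15.8% of genes above the median level, or 12.2% higher. All 4 YAP1/TAZ siRNA arrays exceeded all 4 controls for 5 of the 29 genes, namely SLC17A7, ELAVL3, SYT1, SYT4 and SYT11, and for 4.19% of all genes. The reverse order was seen for 0 of the 29 genes and for 2.03% of all genes. Among the expressed genes the treated arrays lay wholly above in 3 of 16 and wholly below in 0, against 7.00% and 2.37% of genes above the median level. The list was drawn up with earlier results of these data known. An excess of its counts over these shares may therefore stem from the choice, and it was not tested.

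**Figure D1:**
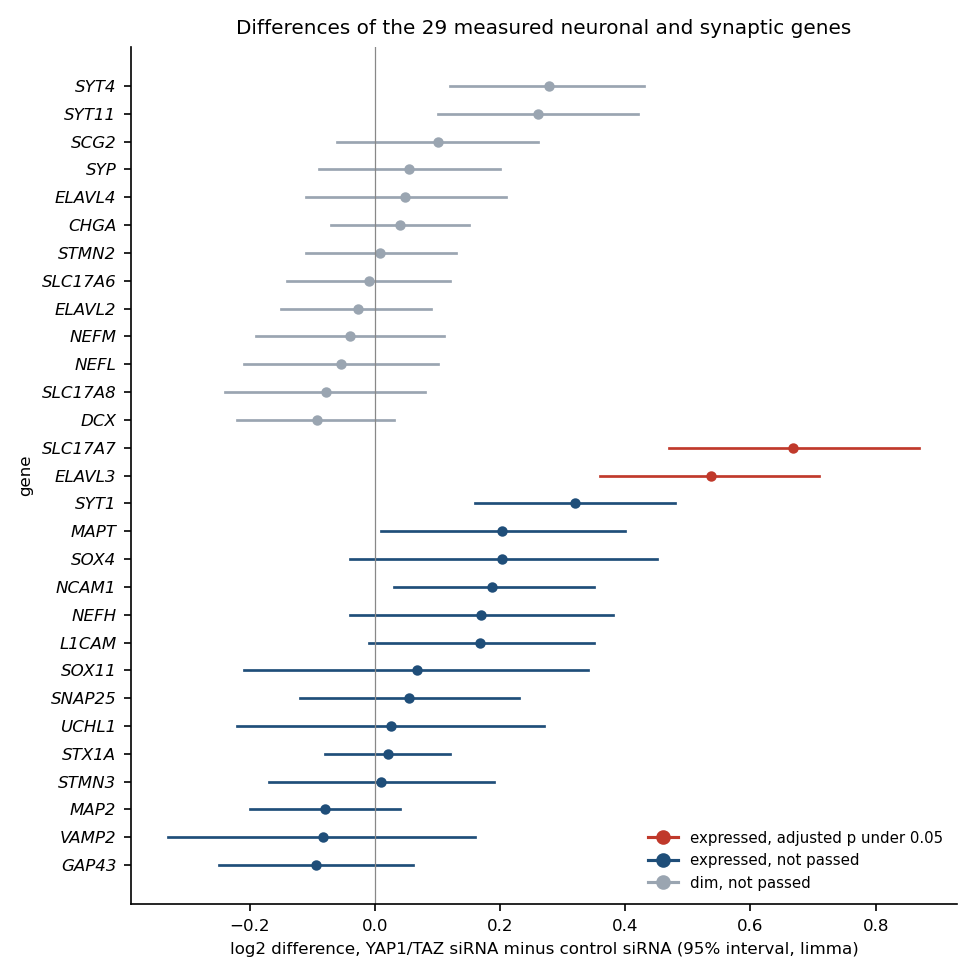
Difference in log2 signal, YAP1/TAZ siRNA minus control siRNA, for the 29 genes (points), with the 95% interval from limma (lines). Dim genes stand above and expressed genes below, and SLC17A7 (0.67) and ELAVL3 (0.54), in red, are the genes that passed.

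The vesicular glutamate transporters load glutamate into synaptic vesicles. SLC17A7, encoding VGLUT1, read 6.87, 7.01, 6.78 and 6.80 on control replicates 1 to 4 and 7.52, 7.33, 7.58 and 7.70 on YAP1/TAZ siRNA replicates 1 to 4. Every treated array lay above every control, and the lowest treated value came from replicate 2, one of the arrays that stood apart. SLC17A7 rose by 0.67 (SE 0.087; limma adjusted p = 0.0305), a 1.59-fold rise with a 95% interval of 1.38 to 1.82. SLC17A6, encoding VGLUT2, was dim, with 3.80 to 4.01 on the controls and 3.82 to 3.93 on the treated arrays. SLC17A8, encoding VGLUT3, was dim as well, with 3.87 to 4.12 on the controls and 3.82 to 3.99 on the treated arrays. The groups overlapped for both dim transporters, whose differences were −0.01 (95% interval −0.14 to 0.12) for SLC17A6 and −0.0775 (−0.24 to 0.08) for SLC17A8. SLC17A7 passed in 1 of 8 fits with a single array omitted, the one without YAP1/TAZ siRNA replicate 2, and the limma adjusted p was 0.0672 to 0.117 in the other 7. After median centring of the arrays it was 0.0799. The difference itself ran from 0.61 to 0.735 under the 16 alternatives.

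The SLC17A7, SLC17A6 and SLC17A8 promoters are shown because SLC17A7 passed and its relatives did not. They come from RefSeq on GRCh38.p14, 5′ to 3′ on the strand of the gene, from 250 bases before to 50 bases after the annotated start. Capitals mark GGACAG, the right part of the element bound by REST, or CAGCTG, an E-box of the kind bound by proneural factors, searched on both strands. The SLC17A7 promoter lies at chr19:49441478-49441777 (minus strand), that of SLC17A6 at chr11:22338131-22338430 (plus strand) and that of SLC17A8 at chr12:100356824-100357123 (plus strand).
SLC17A7: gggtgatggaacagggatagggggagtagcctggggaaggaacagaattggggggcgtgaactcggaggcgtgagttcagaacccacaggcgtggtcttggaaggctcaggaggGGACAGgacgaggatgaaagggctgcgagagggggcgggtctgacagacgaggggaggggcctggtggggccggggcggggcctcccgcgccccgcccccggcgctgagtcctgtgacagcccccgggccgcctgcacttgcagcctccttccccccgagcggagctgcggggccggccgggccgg
SLC17A6: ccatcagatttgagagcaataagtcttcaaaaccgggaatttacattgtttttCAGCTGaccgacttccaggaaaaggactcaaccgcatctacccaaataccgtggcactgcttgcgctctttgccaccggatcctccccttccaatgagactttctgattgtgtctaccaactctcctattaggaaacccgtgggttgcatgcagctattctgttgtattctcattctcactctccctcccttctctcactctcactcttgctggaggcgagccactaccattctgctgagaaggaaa
SLC17A8: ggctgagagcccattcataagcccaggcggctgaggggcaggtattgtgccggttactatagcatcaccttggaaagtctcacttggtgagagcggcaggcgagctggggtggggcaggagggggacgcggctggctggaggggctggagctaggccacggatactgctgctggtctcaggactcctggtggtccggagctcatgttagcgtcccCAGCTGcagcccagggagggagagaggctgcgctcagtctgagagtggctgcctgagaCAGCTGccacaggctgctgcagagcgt
SLC17A7 held GGACAG with its first base 136 bases before the start and no E-box in this window. SLC17A6 held 1 CAGCTG, 197 bases before the start, and SLC17A8 held 2, at 35 bases before and 23 bases after it. The GC content of the windows was 71.7% for SLC17A7, 48% for SLC17A6 and 64% for SLC17A8.

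Neuronal ELAVL proteins, also known as Hu antigens, bind AU-rich stretches of mRNA and promote neuronal splicing and mRNA stability. ELAVL3 read 5.17, 5.30, 5.22 and 5.20 on control replicates 1 to 4 and 5.74, 5.56, 5.90 and 5.84 on YAP1/TAZ siRNA replicates 1 to 4. The groups did not overlap, and replicate 2 was again the lowest treated array. ELAVL3 rose by 0.54 (SE 0.078; limma adjusted p = 0.0417), a 1.45-fold rise with a 95% interval of 1.28 to 1.64. ELAVL2 was dim at 3.79 to 3.85 on the controls and 3.75 to 3.91 on the treated arrays. ELAVL4, dim at 3.93 to 4.17 and 4.03 to 4.20, differed by 0.0475 (95% interval −0.11 to 0.21). For ELAVL2 the difference was −0.0275 (95% interval −0.15 to 0.09), and the groups overlapped for both genes. ELAVL3 likewise passed in 1 of 8 fits with a single array omitted, again the one without YAP1/TAZ siRNA replicate 2, with a limma adjusted p of 0.0993 to 0.159 in the other 7. It was 0.067 after quantile normalization of the arrays and 0.0857 after median centring of the arrays. Without both arrays that stood apart the differences were larger than in all 8 arrays, 0.71 for SLC17A7 and 0.60 for ELAVL3, each with a limma adjusted p of 0.0225.

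Synaptotagmins are vesicle membrane proteins with C2 domains. SYT1 is the calcium sensor of fast release, whereas SYT4 and SYT11 bind calcium poorly and act in other steps of vesicle traffic. SYT1 read 5.37, 5.24, 5.43 and 5.33 on control replicates 1 to 4 and 5.53, 5.78, 5.61 and 5.73 on YAP1/TAZ siRNA replicates 1 to 4. SYT4 was dim, with 4.70, 4.62, 4.70 and 4.70 on the controls and 4.87, 5.14, 4.93 and 4.89 on the treated arrays. SYT11, also dim, read 3.62, 3.45, 3.55 and 3.65 on the controls and 3.80, 3.75, 3.97 and 3.79 on the treated arrays. For each of the 3 genes the treated arrays lay wholly above the controls, by a narrow margin for SYT1 and SYT11. The differences were 0.32 (SE 0.071) for SYT1, 0.28 (SE 0.068) for SYT4 and 0.26 (SE 0.069) for SYT11. None of these passed limma over all genes, with adjusted p of 0.134, 0.173 and 0.196, and none passed under any of the alternatives run. YAP1/TAZ siRNA replicate 2 was the highest array for SYT1 and SYT4 and the lowest treated array for SYT11. Of the 13 further synaptotagmin genes, 2 were expressed, 0 passed limma over all genes. SYT6 alone among them reached an unadjusted limma p under 0.05. Their median difference was 0.01, against 0.28 for SYT1, SYT4 and SYT11. Genes were chosen with earlier results of these data known, so this contrast may stem from the choice and was not tested.

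**Figure D2:**
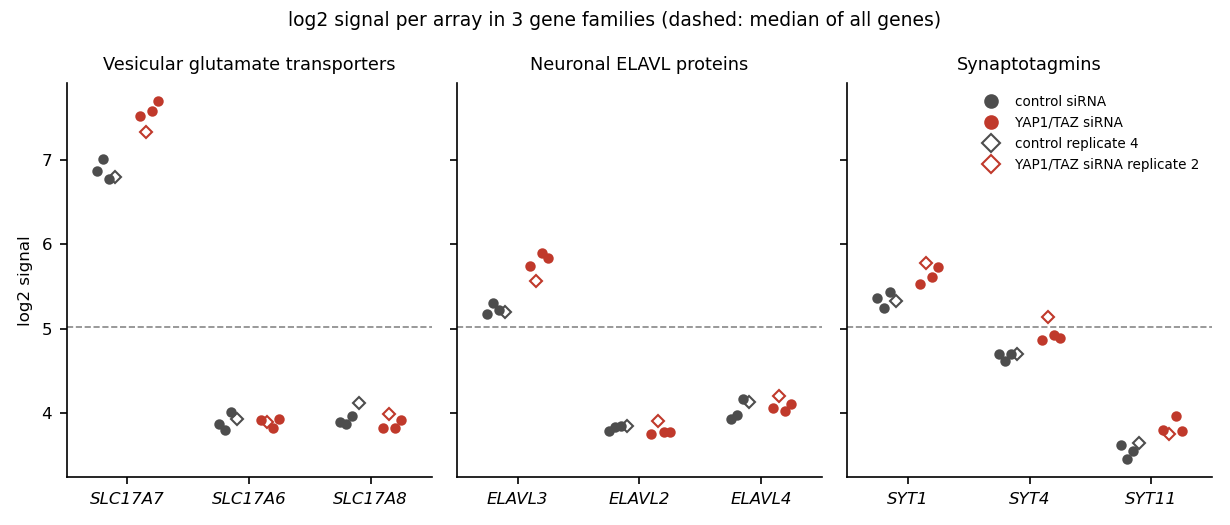
log2 signal on each of the 8 arrays for the glutamate transporter, neuronal ELAVL and synaptotagmin genes, with control siRNA in grey and YAP1/TAZ siRNA in red. Open diamonds mark control replicate 4 and YAP1/TAZ siRNA replicate 2, and the dashed line is the median of all genes (5.03). SLC17A7, ELAVL3 and the 3 synaptotagmins have every treated array above every control.

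Whether family members changed unequally was tested on the log2 difference between 2 genes within each array, for 14 pairs in 6 families. The difference of SLC17A7 exceeded that of SLC17A6 by 0.6775 and that of SLC17A8 by 0.745. For ELAVL3 it exceeded that of ELAVL2 by 0.565 and that of ELAVL4 by 0.49. In each of these 4 pairs the groups did not overlap, with a 2-sided exact permutation p of 0.0286, the smallest that 4 arrays against 4 can give. Adjusted over the 14 pairs this was 0.1. With such a smallest p the adjusted value could go under 0.05 only if most of the 14 pairs reached it, so the lack of a pass says little. The partner gene was dim in each of the 4 pairs, and whether its signal could register a change was not tested. These 4 pairs rest on SLC17A7 and ELAVL3, so they are not independent of each other or of the limma calls. Each of these genes by itself also gave an exact permutation p of 0.0286. The 3 synaptotagmin pairs differed by 0.0175 to 0.06, with exact permutation p of 0.543 to 0.886. For NEFH against NEFL and NEFM the differences were 0.225 and 0.21 (exact permutation p = 0.229 for each). STMN3 against STMN2 differed by 0.0025 and SOX4 against SOX11 by 0.135 (exact permutation p = 1 and 0.457).

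The SNARE proteins SNAP25, STX1A and VAMP2 form the complex that drives vesicle fusion, and SYP, synaptophysin, is an abundant protein of the vesicle membrane. SNAP25 read 5.73, 5.64, 5.83 and 5.62 on the controls and 5.61, 5.88, 5.82 and 5.73 on the treated arrays. STX1A read 5.89, 5.82, 5.88 and 5.92 on the controls and 5.90, 5.88, 5.91 and 5.90 on the treated arrays. VAMP2 read 6.43, 6.33, 6.53 and 6.42 on the controls and 6.12, 6.66, 6.29 and 6.31 on the treated arrays. The groups overlapped for all 3, and none passed. Of the 29 genes STX1A had the narrowest interval around its difference, 0.02 (95% interval −0.08 to 0.12). For VAMP2, YAP1/TAZ siRNA replicate 2 lay above all controls and the other 3 treated arrays lay below all controls. The VAMP2 difference was −0.0825 (95% interval −0.33 to 0.16) with all arrays and −0.19 without both arrays that stood apart. SYP was dim, with 4.69 to 4.94 on the controls, 4.79 to 4.93 on the treated arrays and a difference of 0.055 (95% interval −0.09 to 0.20).

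The neurofilament subunits build the intermediate filaments of axons. NEFH, the heavy subunit, read 5.95, 5.83, 5.80 and 5.71 on the controls and 6.07, 5.77, 6.16 and 5.97 on the treated arrays. Apart from replicate 2, each treated array lay above every control, and the difference of 0.17 (95% interval −0.04 to 0.38; limma adjusted p = 0.579) did not pass. The light and medium subunits were dim. NEFL ran from 3.92 to 4.21 on the controls and from 3.94 to 4.09 on the treated arrays, and NEFM from 4.33 to 4.47 and from 4.25 to 4.51. The groups overlapped for both, with differences of −0.055 (95% interval −0.21 to 0.10) for NEFL and −0.04 (−0.19 to 0.11) for NEFM.

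Among the microtubule and growth cone genes none passed. MAPT, encoding the axonal microtubule protein tau, read 10.42, 10.20, 10.14 and 10.06 on the controls and 10.29, 10.42, 10.51 and 10.41 on the treated arrays. Control replicate 1 lay within the treated range, and the difference was 0.20 (95% interval 0.01 to 0.40; limma adjusted p = 0.453). The cluster used for MAPT carries an ID of a chromosome 17 haplotype contig, and the second MAPT cluster gave a difference of 0.195. MAP2, the dendritic microtubule protein, read 5.22, 5.26, 5.21 and 5.13 on the controls and 5.09, 5.12, 5.20 and 5.09 on the treated arrays, with a difference of −0.08 (95% interval −0.20 to 0.04). STMN3, a stathmin that destabilizes microtubules, read 7.43, 7.45, 7.54 and 7.48 on the controls and 7.33, 7.69, 7.44 and 7.48 on the treated arrays. Its groups overlapped around a difference of 0.01 (95% interval −0.17 to 0.19). GAP43, a growth cone protein of regenerating axons, read 5.41, 5.63, 5.68 and 5.67 on the controls and 5.51, 5.53, 5.48 and 5.49 on the treated arrays. Of the 16 expressed genes it had the lowest difference, −0.095 (95% interval −0.25 to 0.06), with control replicate 1 below all treated arrays and the other controls above them. STMN2, a second stathmin, was dim with 3.60 to 3.65 on the controls and 3.56 to 3.71 on the treated arrays. DCX, a microtubule protein of migrating neurons, was dim with 3.91 to 4.02 on the controls and 3.82 to 3.99 on the treated arrays. The differences were 0.0075 (95% interval −0.11 to 0.13) for STMN2 and −0.0925 (−0.22 to 0.03) for DCX.

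NCAM1 and L1CAM are adhesion molecules of axons. NCAM1 read 5.36, 5.35, 5.35 and 5.51 on the controls and 5.67, 5.41, 5.61 and 5.63 on the treated arrays. L1CAM read 6.0, 6.0, 5.87 and 5.86 on the controls and 6.18, 5.89, 6.16 and 6.17 on the treated arrays. In both genes treated replicates 1, 3 and 4 lay above all controls, and replicate 2 lay among them. The differences were 0.19 (95% interval 0.03 to 0.35; limma adjusted p = 0.398) for NCAM1 and 0.17 (95% interval −0.01 to 0.35; limma adjusted p = 0.517) for L1CAM. Neither passed under any alternative, and the lowest limma adjusted p for NCAM1 was 0.0505.

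SOX4 and SOX11 are related transcription factors of neural progenitors and young neurons. SOX4 read 9.66, 9.61, 9.65 and 9.28 on the controls and 9.64, 9.62, 9.97 and 9.78 on the treated arrays. Control replicate 4 was the lowest array, and the difference of 0.20 (95% interval −0.04 to 0.45) became 0.11 without it. SOX11 read 6.42, 6.38, 6.45 and 6.63 on the controls and 6.33, 6.85, 6.64 and 6.33 on the treated arrays, which overlapped (difference 0.0675; 95% interval −0.21 to 0.34).

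UCHL1, a ubiquitin hydrolase abundant in neurons, was bright in both groups. It read 14.45, 14.40, 14.34 and 14.06 on the controls and 14.40, 14.10, 14.43 and 14.42 on the treated arrays. The lowest value of each group came from the array that stood apart, and the difference was 0.025 (95% interval −0.22 to 0.27). The dense core vesicle proteins CHGA and SCG2, members of the granin family, were dim. CHGA ran from 4.39 to 4.43 on the controls and from 4.39 to 4.50 on the treated arrays, and SCG2 from 4.58 to 4.75 and from 4.61 to 4.85. Both groups overlapped, with differences of 0.04 (95% interval −0.07 to 0.15) for CHGA and 0.10 (−0.06 to 0.26) for SCG2.

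**Figure D3:**
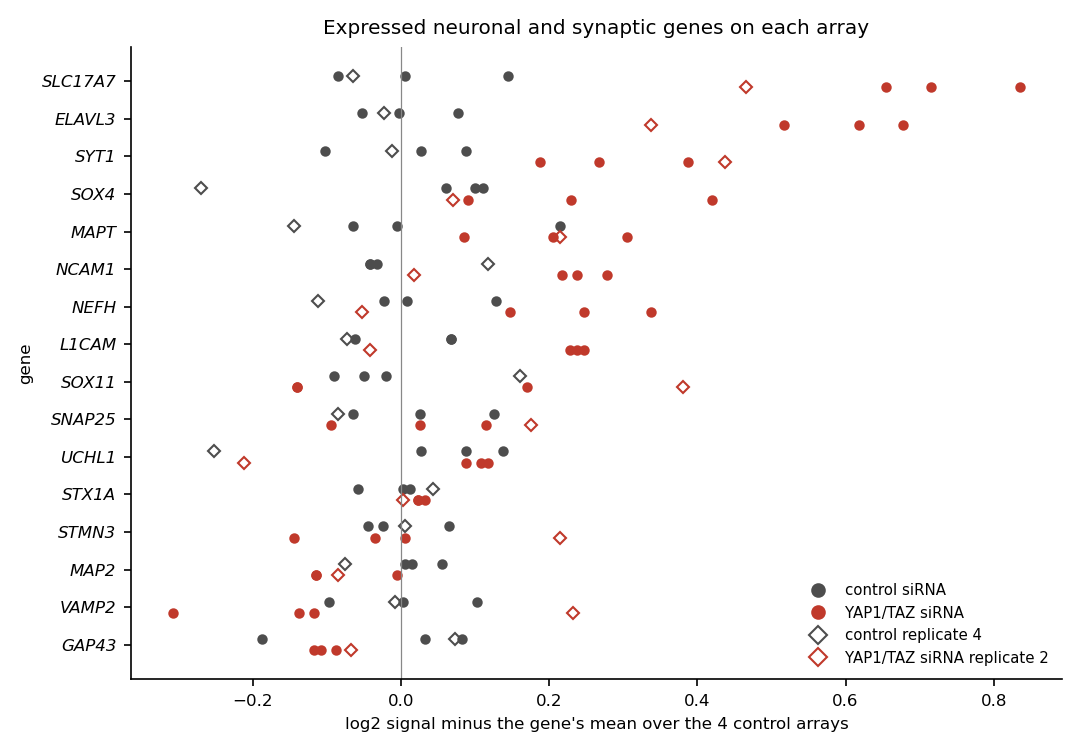
log2 signal of each of the 16 expressed genes on each array, relative to that gene's mean over the 4 control arrays. Grey is control siRNA and red is YAP1/TAZ siRNA, and open diamonds mark control replicate 4 and YAP1/TAZ siRNA replicate 2. The diamonds lie low in both groups for UCHL1 and high in both for SOX11, while for SLC17A7, ELAVL3, NCAM1, NEFH and L1CAM the treated diamond is the lowest treated array.

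The arrays that stood apart touched the neuronal genes unevenly. Relative to the other 3 arrays of its group, control replicate 4 was displaced by −0.36 for SOX4 at one end and by 0.213 for SOX11 at the other, among the 16 expressed genes. YAP1/TAZ siRNA replicate 2 was displaced by −0.317 for UCHL1 at one end and by 0.42 for VAMP2 at the other. Both arrays were displaced the same way for 10 of the 16 expressed genes, where this held for 72.3% of all genes above the median level. The median difference of the expressed genes was 0.095 without both arrays.

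**Figure D4:**
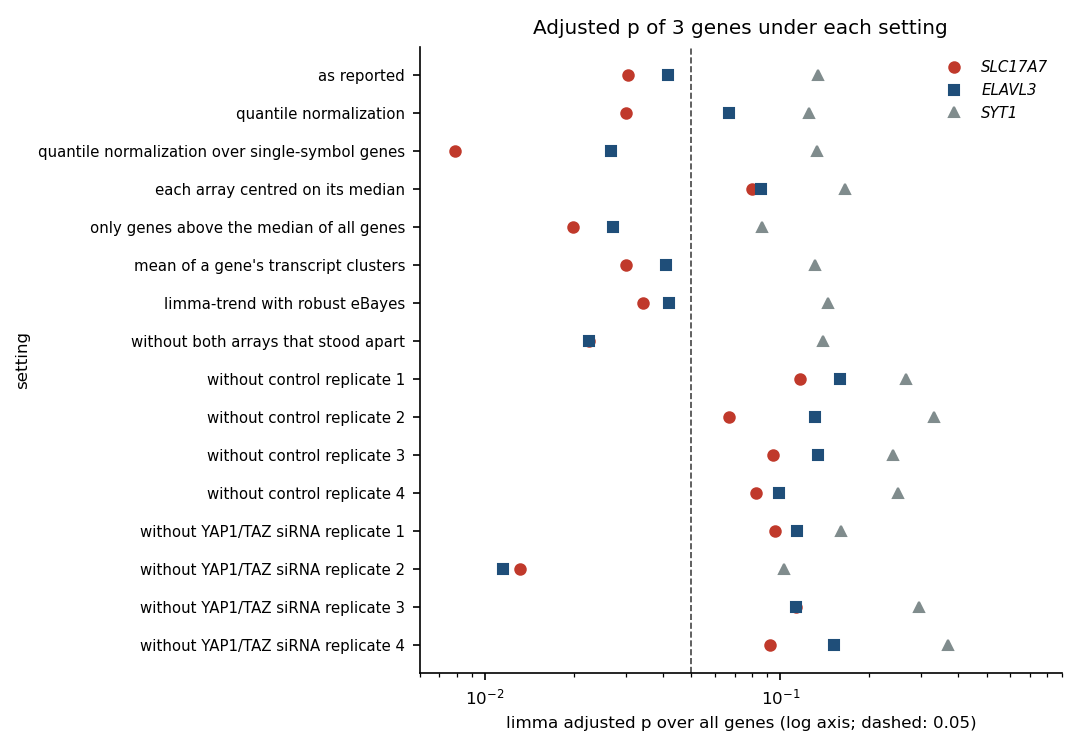
limma adjusted p over all genes (log axis) for SLC17A7, ELAVL3 and SYT1 as reported and under 15 of the 16 alternatives, the fit with the replicate number as a block not being drawn. The dashed line is 0.05. SLC17A7 and ELAVL3 lie left of it as reported and without YAP1/TAZ siRNA replicate 2, but right of it in the other fits that left out 1 array, and SYT1 lies right of it throughout.

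Promoter sequences were matched for 19 of the 29 genes. Those of ELAVL3, SNAP25, NEFL, NEFM, NEFH, MAPT, STMN2, NCAM1, SOX11 and SCG2 were not used here. The SYT1 and GAP43 promoters are shown because they share GGACAG with SLC17A7, while GAP43 had the lowest difference among the expressed genes and SYT1 a positive one. Capitals mark GGACAG on either strand. The SYT1 window is chr12:78864524-78864823 and the GAP43 window is chr3:115623260-115623559, both on the plus strand of GRCh38.p14 per RefSeq.
SYT1: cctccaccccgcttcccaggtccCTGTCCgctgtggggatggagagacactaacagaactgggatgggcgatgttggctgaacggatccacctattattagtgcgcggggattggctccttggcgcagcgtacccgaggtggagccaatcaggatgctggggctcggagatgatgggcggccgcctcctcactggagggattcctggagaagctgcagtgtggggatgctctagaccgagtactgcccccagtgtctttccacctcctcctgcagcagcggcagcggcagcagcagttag
GAP43: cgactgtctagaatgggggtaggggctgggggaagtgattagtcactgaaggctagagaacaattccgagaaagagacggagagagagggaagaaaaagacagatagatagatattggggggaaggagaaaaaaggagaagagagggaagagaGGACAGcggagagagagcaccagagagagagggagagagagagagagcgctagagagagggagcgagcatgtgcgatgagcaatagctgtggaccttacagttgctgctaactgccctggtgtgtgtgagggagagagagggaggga
In SYT1 the match lay 227 bases before the start on the opposite strand, and in GAP43 97 bases before it on the strand of the gene. GGACAG was found in these 3 promoters of the 19 (15.8%) and in 20.5% of all 27305 promoters. CAGCACC, the left part of the REST element, was found in SYT4 alone (5.26%, against 7.64% of all promoters). GGAATG, the core of the TEAD site, was found in ELAVL4, SYP and SOX4 (15.8%, against 14% of all promoters), none of which passed. CAGCTG was found in 6 of the 19 (31.6%, against 17.7% of all promoters), namely ELAVL2, SYT11, SLC17A6, SLC17A8, L1CAM and SOX4. No match overlapped a match of another motif. The SLC17A7 promoter held neither GGAATG nor CAGCACC in this window.

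Further neuronal genes were read from 9 lists of release machinery, vesicle proteins, neuropeptides, transmitter enzymes, REST corepressors, neuronal transcription factors, RNA-binding proteins, axonal proteins and synaptotagmins. Of 125 genes listed 116 were measured, 56 of them expressed. By limma 0 rose and 0 fell over all genes. At an unadjusted limma p under 0.05 there were 15 of 116, of which 14 were higher, against 10.3% of all genes and 7.13% that were higher. The median difference was 0.016, against 0.0075 over all genes, and 9 of 116 (7.76%) had every treated array above every control, against 4.19% of all genes. These lists were also chosen with earlier results of these data known, so their counts here and below may stem from the choice.

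In the list of axonal and cytoskeletal genes, 5 of 18 had an unadjusted p under 0.05, all higher, against 10.3% of all genes and 7.13% that were higher. The median difference of the list was 0.051. MAP1A, a microtubule protein of mature neurons, read 9.62, 9.63, 9.54 and 9.16 on the controls and 10.05, 9.86, 10.33 and 10.32 on the treated arrays. The groups did not overlap, and the difference of 0.65 (SE 0.14; limma adjusted p = 0.122) did not pass, although it was close in size to that of SLC17A7. Without both arrays that stood apart MAP1A, DPYSL3 and SV2A passed, with differences of 0.64, 0.43 and 0.50 and limma adjusted p of 0.0337, 0.0487 and 0.0489. SV2A also passed without YAP1/TAZ siRNA replicate 2 alone (limma adjusted p = 0.0426).

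REST itself did not pass. It read 9.21, 9.23, 9.15 and 8.97 on the controls and 9.05, 8.74, 9.07 and 9.05 on the treated arrays, with a difference of −0.1625 (95% interval −0.37 to 0.05; limma adjusted p = 0.604). RCOR1, a REST corepressor, had the smallest p of its list, with 11.84 to 12.02 on the controls and 12.13 to 12.47 on the treated arrays and a difference of 0.35 (SE 0.078; limma adjusted p = 0.134). The median over the 11 genes of that list, all of them expressed, was 0.015. Of these 11 genes, 2 had an unadjusted limma p under 0.05, both higher. Among genes above the median level 15.8% did so, and 12.2% were also higher. Among RNA-binding and splicing factors, 3 of 12 had an unadjusted p under 0.05, all higher, against 10.3% of all genes and 7.13% that were higher. These were RBFOX2, ELAVL1 and PTBP2, which are 3 of the 4 expressed genes of that list. Among genes above the median level the shares were 15.8%, and 12.2% that were higher. RBFOX2, a splicing factor, differed by 0.25 (SE 0.066; limma adjusted p = 0.203), and ELAVL1, the ubiquitous relative of ELAVL3, by 0.26 (SE 0.079; limma adjusted p = 0.269).

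The other lists held at most 1 gene each at an unadjusted p under 0.05. The gene with the smallest p was RIMS2, an active zone protein, with 0.12 among 15 genes of release machinery, and SV2C, a vesicle glycoprotein, with 0.29 among 13 vesicle genes. It was PAM, which amidates neuropeptides, with −0.1675 among 9 dense core vesicle genes, and SLC1A1, a glutamate transporter of the plasma membrane, with 0.25 among 11 transmitter genes. It was NEUROD6, a basic helix-loop-helix factor, with 0.38 among 14 transcription factors, and SYT6 with 0.145 among the 13 further synaptotagmins. The limma adjusted p of these 6 genes lay between 0.22 and 0.548.

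**Figure D5:**
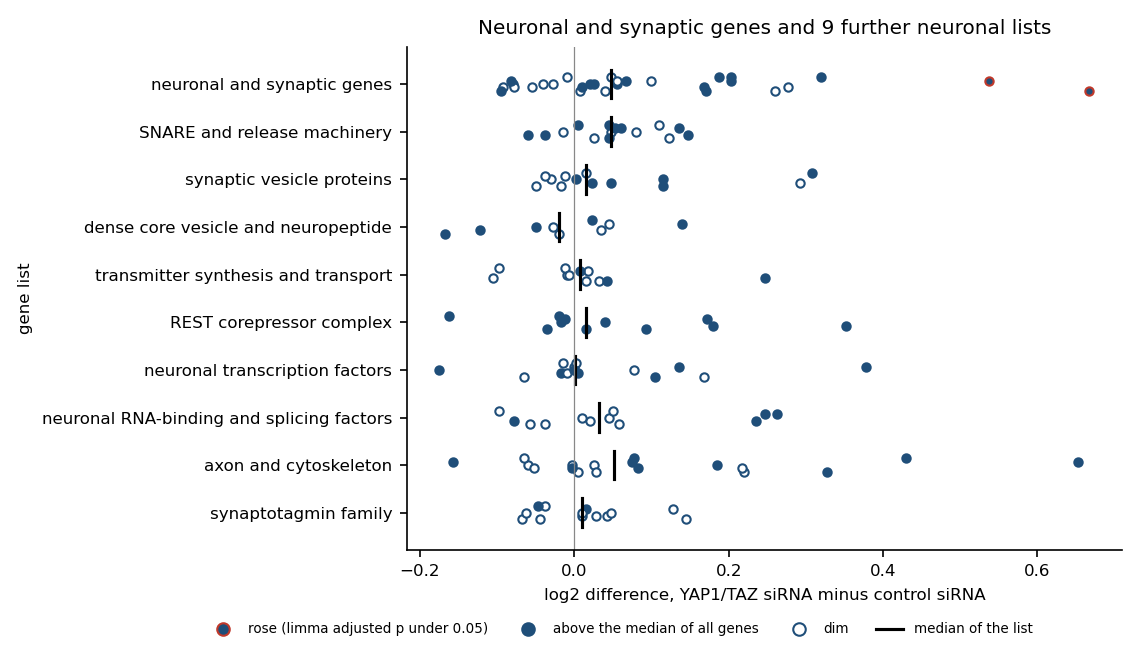
Difference in log2 signal, YAP1/TAZ siRNA minus control siRNA, for the 29 neuronal and synaptic genes and for 9 further neuronal lists, each point a gene. Filled points are expressed, open points dim, and the black bar is the list's median. SLC17A7 and ELAVL3, edged in red, passed, and MAP1A (0.65) is the point furthest right in the other lists.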

How the data were processed

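Total RNA of 8 cultures was hybridised to whole-transcript arrays, with biotin-labelled cRNA made by the GeneChip WT PLUS kit per the labels' protocols. Per the submitters' processing notes, Transcriptome Analysis Console made the deposited log2 signals of transcript clusters. Not given in the sources used here are its version, summary algorithm, normalization and genome build. The log2 scale was read from the range of 2.27 to 19.93. Of 67528 clusters, 23781 had 1 gene symbol, updated through RefSeq, which left 22411 genes.

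Groups came from the sample titles. The test was limma 3.58.1 under R 4.3.3 (no covariate, Benjamini-Hochberg over 22411 genes, threshold 0.05). This step was tested on simulated data with noise drawn independently for each gene and array. That simulation held no variation shared across genes, so it does not cover the arrays that stood apart here. Pairs within families used a 2-sided exact permutation test. Expressed genes are given on every array, dim ones by range (SYT4 and SYT11 also on every array, chosen after their values were seen), and of the other lists any gene that passed or had the smallest p. DPYSL3, SV2A, ELAVL1, PTBP2 and REST were named after their values were seen. Genes and lists were chosen with earlier results of these data known.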

Additional observations from a re-analysis of the deposited data

Results flagged for a closer look

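In 7 of 58 groups of 4 arrays examined over the 29 genes, 1 array lay far from the other 3 by Dixon's test, where chance gives about 1 in 20 groups. Control replicate 4 was such an array for 3 genes. SOX4 read 9.28 there against 9.61 to 9.66, NCAM1 read 5.51 against 5.35 to 5.36, and DCX, which was dim, read 3.91 against 4.01 to 4.02. YAP1/TAZ siRNA replicate 2 was such an array for 2 genes. L1CAM read 5.89 there against 6.16 to 6.18, and UCHL1 read 14.10 against 14.40 to 14.43. The remaining cases were small gaps in dim genes, with ELAVL2 at 3.79 on control replicate 1 against 3.84 to 3.85 and SYT4 at 4.62 on control replicate 2 against 4.70 on each of the others. Values were deposited with 2 decimals, so gaps of this size rest on few steps.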

How the results depend on the processing

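The count of neuronal and synaptic genes that rose, 2 as reported, was 1 after quantile normalization of the arrays and 0 after median centring of the arrays. It was 0 to 2 in the fits that left out 1 array. The count that fell was 0 in all settings run. The median difference of the expressed genes ran from 0.075 to 0.15 in the fits that left out 1 array. Over all genes, 30 rose and 18 fell as reported. In the fits that left out 1 array 8 to 137 rose and 3 to 29 fell, and without both arrays that stood apart 144 rose and 44 fell. With arrays centred on their medians 13 rose, after quantile normalization 35 fell, and among genes above the median level 52 rose and 30 fell. Quantile normalization over single-symbol genes, chosen after seeing the data, gave 79 and 69. Pairs with an exact permutation p under 0.05 numbered 4 as reported and after quantile normalization of the arrays. Taking the mean of a gene's clusters could not change this count. MAPT, the only neuronal and synaptic gene with more than 1 cluster, is in no pair. No other setting with all arrays was used for the pairs. Of the further neuronal lists, 0 genes rose as reported, 2 with quantile normalization over single-symbol genes (RCOR1 and MAP1A), 3 without both arrays that stood apart and 0 to 1 in the fits that left out 1 array.

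With the replicate number as a block, 1 gene rose and 2 fell over all genes, and 0 of the neuronal and synaptic genes rose (SLC17A7 and ELAVL3 had limma adjusted p of 0.247 and 0.25). The labels state no pairing of the samples. The correlations of same-numbered deviations from the group means were 0.368, −0.47, 0.0162 and −0.389, and not every array correlated best with its own number. The highest, 0.612, joined control replicate 4 and YAP1/TAZ siRNA replicate 2, the arrays that stood apart. Their shared displacement could mask a pairing, so these correlations cannot decide whether the numbers pair the samples. Without 1 array the exact permutation test of the pairs cannot go below 0.0571, so it was given as a value only.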
